A study of Mus musculus with 9 samples.

Results

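Sfmbt2 and the miRNA genes of the Mir297, Mir466, Mir467 and Mir669 families were followed in mouse ES cells that were wild-type (WT) or lacked Dgcr8 (Dgcr8 KO) or Dicer (Dicer KO). Members were the rows of the deposited expression table whose platform annotation is Sfmbt2 or begins with 1 of these 4 family names, which gave 28 of 35557 rows. Several rows hold the same value on all 9 arrays, and after each set of identical rows was counted a single time there remained 8 members, Sfmbt2 and 7 miRNA rows, of 35080 different rows. A row is the array's summary of 1 transcript cluster and carries 1 normalized log2 level per array.

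The study profiled mRNA on Affymetrix mouse gene 1.0 ST arrays to find transcripts that change when the Microprocessor is lost but not when Dicer is lost. WT cells were of the v6.5 line, and the mutants lacked Dgcr8 or Dicer, with 3 arrays per genotype. The labels give no further alleles, treatments or times for these groups, nor the number of clones behind each mutant. The paper calls the arrays biological replicates and the labels describe triplicate plates, so that the spread behind the p-values may be only technical.

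Sfmbt2 encodes a Polycomb-group protein with MBT domains, modules that bind methylated histone tails. The gene is imprinted, is expressed from the paternal copy in early embryos and extraembryonic tissue, and is needed for the trophoblast of the placenta. In rodents 1 of its introns holds a large array of miRNA genes that arose by repeated duplication. The Microprocessor, made of Drosha and its RNA-binding partner Dgcr8, cuts miRNA hairpins out of long primary transcripts in the nucleus, and Dicer cuts the released hairpins to mature miRNAs in the cytoplasm. Loss of either protein therefore stops these miRNAs at a different step.

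RefSeq of the GRCm38.p6 assembly lists 81 genes of the 4 families, of which 71 lie within Sfmbt2 on chromosome 2. The array rows name 31 of the 81, and 30 of these lie within Sfmbt2. Inside the gene stand 5 Mir297, 23 Mir466, 14 Mir467 and 29 Mir669 genes, of which the rows name 1, 1, 12 and 16 in that order. The Mir466 genes are the least covered, with a single gene on a row. A block of 13 identical rows names 14 Mir669a and Mir669p genes, and a block of 9 identical rows names 12 Mir467a, Mir467b and Mir467d genes. Each block is treated here as 1 measurement of near-identical copies, and no single copy can be read from it. Mir669b, Mir669c, Mir466 and Mir297b have 1 row each. The seventh miRNA row is Mir297-1, which RefSeq places on chromosome 7, outside Sfmbt2.

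**Figure D1:**
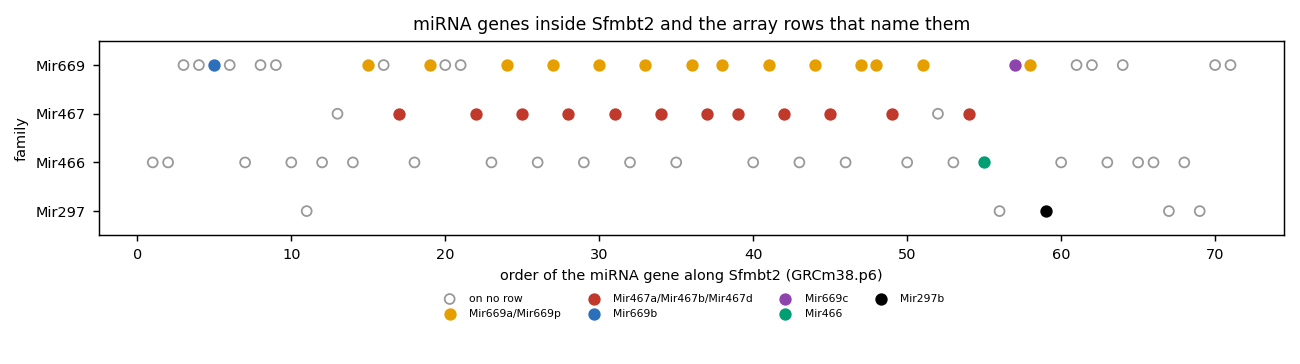
The 71 miRNA genes within Sfmbt2 in their order along the gene (x axis, rank of position in GRCm38.p6) by family (y axis), with filled points for genes that an array row names, coloured by row, and open points for genes that no row names. Genes of the Mir669a/Mir669p block and of the Mir467a/Mir467b/Mir467d block alternate through the middle of the array, and Mir466, Mir669c and Mir297b lie close together after them.

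Letters of the families were read for their repeats. In RefSeq, 8 family genes on other chromosomes had a mature sequence, and 0 of the 8 are on an array row. They are shown for the makeup of the families and not as measured members. Below, 4 of them are written 5′ to 3′ with the seed, bases 2 to 8, in capitals.
mmu-miR-466i-3p: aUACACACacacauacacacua
mmu-miR-467f: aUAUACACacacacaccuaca
mmu-miR-466k: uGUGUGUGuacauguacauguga
mmu-miR-669n: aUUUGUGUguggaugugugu
They lie in GRCm38.p6 at chr13:17747552-17747573 on the plus strand, chr11:69635419-69635439 on the minus strand, chr3:85467396-85467418 on the plus strand and chr3:115979905-115979924 on the plus strand. The longest run of alternating U and G or alternating C and A is 11 bases in miR-466i-3p, 12 in miR-467f, 9 in miR-466k and 8 in miR-669n. The 8 mature sequences carry 8 different seeds, and none of them is of the Mir297 family.

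Of the measured members, the hairpin of Mir297-1 was matched in RefSeq, at chr7:10958437-10958512 on the minus strand. Its first 30 bases, with the longest alternating U and G run of 6 bases in capitals, are shown because it is a measured row whose letters can be read.
Mir297-1: auauguauguauguauguaUGUGUGcaugu

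The arrays matched their labels in the targeted genes. The Dgcr8 level was 9.76, 9.81 and 9.82 in WT and 8.74, 8.96 and 8.86 in Dgcr8 KO, and the Dicer1 level was 10.18, 10.18 and 10.23 in WT and 8.33, 8.43 and 8.32 in Dicer KO. Of 10 ES cell markers, Pou5f1, which encodes Oct4, had a mean log2 level of 12.38 in WT, and the mean over the list lay between 11.20 and 11.58 on all arrays. Of these markers, 6 were called higher and 1 was called lower in Dgcr8 KO. In Dicer KO, 7 were called higher and 1 was called lower. The share of all rows called higher was 11.1% for Dgcr8 KO against 12.6% for Dicer KO. The share called lower was 12.6% for Dgcr8 KO against 13.2% for Dicer KO. Nanog, a pluripotency factor gene, rose by 0.77 in Dgcr8 KO cells and by 1.10 in Dicer KO cells. The part of the markers in the level of Sfmbt2 was not tested. The main axis of variation among replicates held 31.6% of their spread, with WT replicate 1 at 1 end (0.632) and Dgcr8 KO replicate 2 at the other (-0.491). Changes are given below without those arrays as well.

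Sfmbt2 fell in both mutants, and fell further in Dgcr8 KO than in Dicer KO. Its log2 level was 10.22, 10.26 and 10.30 in WT, 7.66, 7.88 and 7.68 in Dgcr8 KO cells and 9.26, 9.30 and 9.26 in Dicer KO cells. All 3 WT arrays were above all Dicer KO arrays, and all Dicer KO arrays were above all Dgcr8 KO arrays, so that no genotypes overlapped. The group means were 10.26 ± 0.0432 (SD, n = 3) in WT, 7.74 ± 0.12 (SD, n = 3) in Dgcr8 KO and 9.27 ± 0.0244 (SD, n = 3) in Dicer KO. In bulk RNA such as this, fewer cells that express a gene and less RNA per cell cannot be told apart.

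In Dgcr8 KO, Sfmbt2 was 5.73-fold lower than in WT, a log2 ratio of -2.52 with a standard error of 0.0649 and a limma adjusted p = 2.92e-07. This was the 11th lowest log2 ratio of all 35557 rows, in a comparison in which 12.6% of all rows were called lower. In Dicer KO, Sfmbt2 was 1.98-fold lower than in WT, with a log2 ratio of -0.99 and a limma adjusted p = 1.62e-05. Its ratio ranked 297 from the lowest, and 13.2% of all rows were called lower in that comparison. The direct comparison of the mutants put Sfmbt2 2.89-fold below its Dicer KO level in Dgcr8 KO, with a log2 ratio of -1.53, a 95% interval from -1.69 to -1.37 and a limma adjusted p = 6.06e-06. Here 9.4% of all rows were called lower and Sfmbt2 ranked 75 from the lowest. Without these 2 arrays, the 3 log2 ratios were -2.61, -1.01 and -1.60 in the same order, and each was still called. The mutants are compared with the same WT arrays, so their ratios to WT are not independent of each other.

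**Figure D2:**
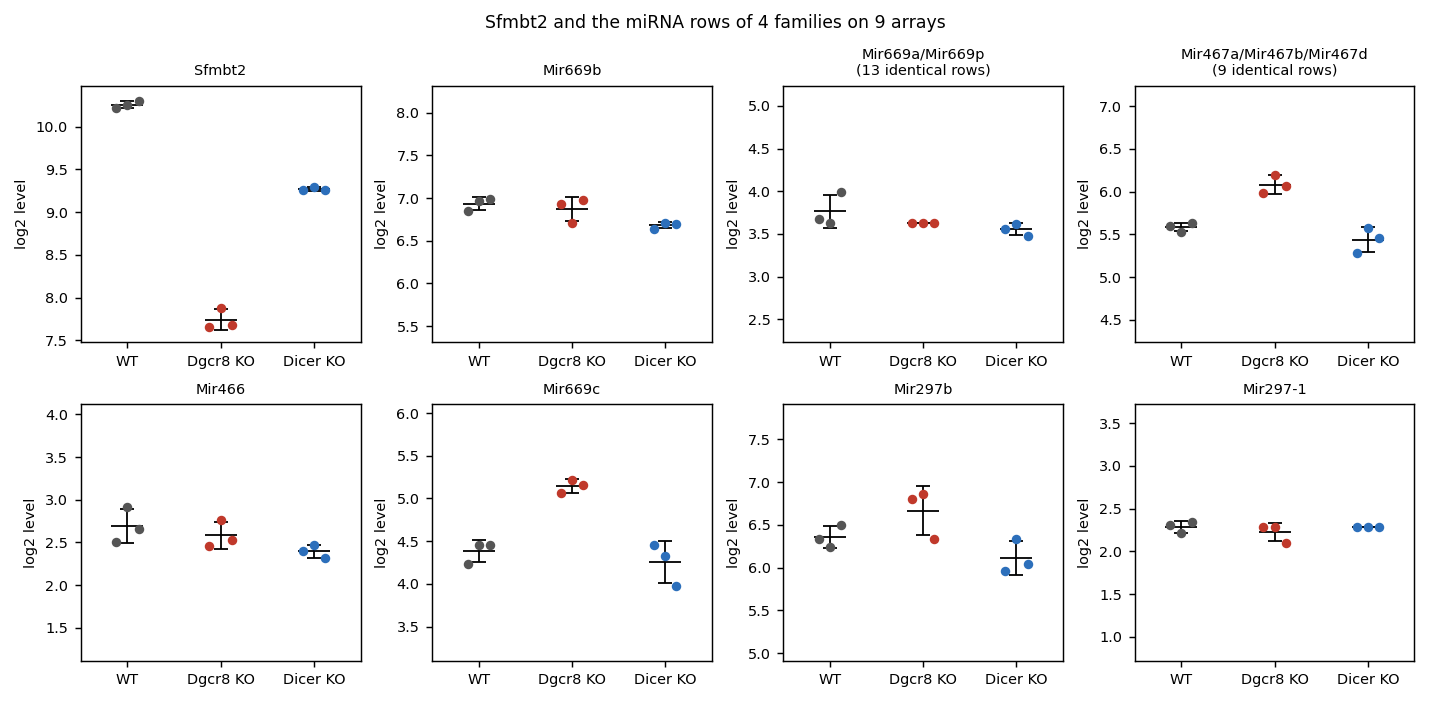
Normalized log2 level (y axis) of the 8 members on each array (points) by genotype (x axis), with the mean and SD over 3 arrays, and with every panel spanning 3 log2 units around its own values. Sfmbt2 separates the 3 genotypes, with means of 10.26, 7.74 and 9.27 in WT, Dgcr8 KO and Dicer KO, whereas the Mir467a/Mir467b/Mir467d block and Mir669c are highest in Dgcr8 KO.

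The genes on either side of Sfmbt2 did not pass the test in any comparison. Itih5, which encodes a hyaluronan-binding protein and is the nearest measured protein-coding gene with a single symbol on 1 side, had log2 levels of 5.18, 5.03 and 5.03 in WT, 5.35, 4.93 and 5.11 in Dgcr8 KO cells and 5.02, 4.82 and 5.05 in Dicer KO cells. Prkcq, the protein kinase C theta gene on the other side, had 5.15, 4.91 and 4.93 in WT, 5.11, 4.72 and 4.80 in Dgcr8 KO cells and 4.85, 4.92 and 4.72 in Dicer KO cells. The arrays of the 3 genotypes overlapped for both genes. Their log2 ratios to WT were 0.05 and -0.12 in Dgcr8 KO cells and -0.12 and -0.16 in Dicer KO cells, with limma adjusted p of 0.813, 0.572, 0.508 and 0.355. Both genes were already dim in WT, with means of 5.08 and 4.99 beside a median level of 6.52 over all rows. A fall in either might therefore not show.

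No miRNA row of the families was called lower in Dgcr8 KO, where Sfmbt2 fell. Against WT, 2 of the 7 miRNA rows were called higher, where 11.1% of all rows were called higher. By limma or by SAM 0 were called lower, with 0 lower at an unadjusted p under 0.05. Of all rows, limma called 12.6% lower, and with 7 rows a count of 0 is not read as a difference from that share. Some of the 7 rows were dim, at or below the 7.07th percentile of all rows in mean signal, where a fall might not show. The rows that rose were the Mir467a/Mir467b/Mir467d block and Mir669c, both inside Sfmbt2.

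The Mir467a/Mir467b/Mir467d block had a log2 level of 5.60, 5.53 and 5.63 in WT, 5.98, 6.20 and 6.07 in Dgcr8 KO cells and 5.28, 5.57 and 5.46 in Dicer KO cells. All Dgcr8 KO arrays were above all others, and the Dicer KO arrays overlapped those of WT. In Dgcr8 KO the block was 1.41-fold higher than in WT (log2 ratio 0.50, standard error 0.0879, limma adjusted p = 0.00397) and 1.56-fold higher than in Dicer KO (log2 ratio 0.65, limma adjusted p = 0.00182). Its Dicer KO ratio to WT was -0.15, with a 95% interval from -0.36 to 0.07 and a limma adjusted p = 0.27. Without WT replicate 1 and Dgcr8 KO replicate 2, the ratios of Dgcr8 KO to WT and to Dicer KO were 0.44 and 0.59 and were still called. The rise over WT did not reach 1.5-fold.

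Mir669c had a log2 level of 4.23, 4.46 and 4.46 in WT, 5.06, 5.22 and 5.16 in Dgcr8 KO cells and 4.46, 4.33 and 3.98 in Dicer KO cells. Again all Dgcr8 KO arrays were above all others, while WT and Dicer KO overlapped. In Dgcr8 KO it rose 1.7-fold over WT (log2 ratio 0.76, standard error 0.126, limma adjusted p = 0.00275) and 1.86-fold higher than in Dicer KO (log2 ratio 0.89, limma adjusted p = 0.0022). Its log2 ratio of Dicer KO to WT was -0.13, with a 95% interval from -0.44 to 0.18. Without WT replicate 1 and Dgcr8 KO replicate 2 its ratios of Dgcr8 KO to WT and to Dicer KO were 0.65 and 0.86, still called. The row is dim, with a mean signal at the 16.5th percentile of all rows.

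Mir297b, the measured row of its family inside Sfmbt2, gave a borderline result. Its log2 level was 6.34, 6.24 and 6.50 in WT, 6.80, 6.86 and 6.34 in Dgcr8 KO cells and 5.96, 6.34 and 6.04 in Dicer KO cells. Dgcr8 KO replicate 3 lay among the WT arrays, and the other Dgcr8 KO arrays were above all of WT and Dicer KO. The log2 ratio to Dicer KO was 0.55, or 1.47-fold, with a limma adjusted p = 0.0467, and the ratio to WT was 0.31 with an adjusted p = 0.228. The call against Dicer KO held in 9 of 24 alternative settings and was lost without WT replicate 1 and Dgcr8 KO replicate 2 (0.46, limma adjusted p = 0.134). In all, 3 of the 7 miRNA rows were called higher in Dgcr8 KO than in Dicer KO, beside 7.53% of all rows. By limma or SAM 0 were called lower, beside 9.4% of all rows by limma, and 0 were lower at an unadjusted p under 0.05. Over all rows 2679 were called higher and 3343 lower in that comparison, and 1835 and 3996 when each array was centred on its median.

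In Dicer KO, 1 of the 7 miRNA rows was called lower than in WT and 0 were called higher by limma or SAM, with 0 higher at an unadjusted p under 0.05. Of all rows, 13.2% were called lower and 12.6% higher, and 1 of 7 is 14.3%, near the share of all rows. The row called was Mir669b, the member that stands apart from the Mir669a copies near 1 end of the array of genes. Its log2 level was 6.85, 6.96 and 6.99 in WT, 6.93, 6.71 and 6.98 in Dgcr8 KO cells and 6.64, 6.71 and 6.70 in Dicer KO cells. The Dicer KO arrays were below all WT arrays by a small margin, and the log2 ratio was -0.25 with a standard error of 0.0773 and a limma adjusted p = 0.0459. The call held in 11 of 24 alternative settings, with adjusted p from 0.00563 to 0.136. Dgcr8 KO overlapped WT for Mir669b, with a log2 ratio of -0.06 and a 95% interval from -0.25 to 0.13.

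The remaining miRNA rows passed the test in none of the 3 comparisons, and their levels were low. The Mir669a/Mir669p block had a log2 level of 3.67, 3.63 and 3.99 in WT, 3.63 on each Dgcr8 KO array and 3.56, 3.62 and 3.48 in Dicer KO. Its log2 ratio to WT was -0.13 in Dgcr8 KO cells (95% interval from -0.36 to 0.09) and -0.21 in Dicer KO cells (95% interval from -0.44 to 0.02). Mir466 had 2.51, 2.91 and 2.66 in WT, 2.46, 2.76 and 2.53 in Dgcr8 KO cells and 2.40, 2.47 and 2.32 in Dicer KO cells. All Dicer KO arrays of Mir466 were just below those of WT, with a log2 ratio of -0.30 and a limma adjusted p = 0.104. Mir297-1, on chromosome 7, had 2.31, 2.21 and 2.34 in WT, 2.29, 2.29 and 2.10 in Dgcr8 KO and 2.29 on each Dicer KO array. Its log2 ratios to WT were -0.06 and 0.01, and its arrays overlapped in every comparison. The whole table runs from 1.63 to 14.99, and the mean signals of the Mir669a/Mir669p block, Mir466 and Mir297-1 lay at the 7.07th, 0.728th and 0.0844th percentile of all rows, at the low end of the scale. Signals of different rows are not amounts that can be set against each other.

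**Figure D3:**
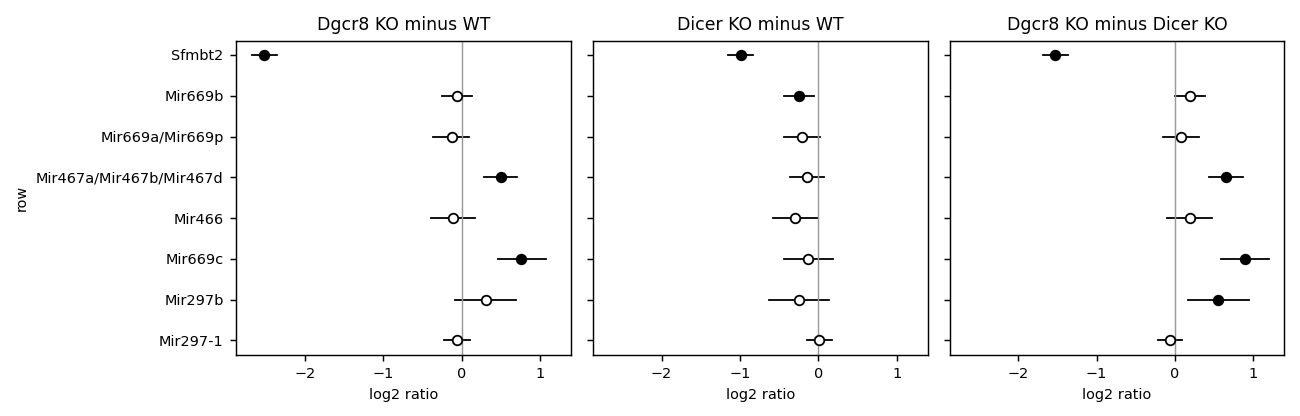
Log2 ratio (x axis) of each member (y axis) in the 3 comparisons, with 95% intervals from limma and filled points where the adjusted p was under 0.05. Sfmbt2 lies at -2.52, -0.99 and -1.53, and every filled miRNA point in the comparisons with Dgcr8 KO lies above 0.

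Along Sfmbt2, the rows that rose lie among rows that were not called. Of the genes named by a row, Mir669c lies between Mir466 and 1 copy of the Mir669a/Mir669p block, whose log2 ratios of Dgcr8 KO to WT were -0.11 and -0.13 beside 0.76 for Mir669c. The copies of the Mir467 block, with a ratio of 0.50, alternate with those of the Mir669a/Mir669p block. Mir466 and the Mir669a/Mir669p block lay at the 0.728th and 7.07th percentile of all rows in mean signal, where a change might not show. Differences between the rows were not tested.

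Within each array, every miRNA row was compared with Sfmbt2 as the log2 level of the row minus that of Sfmbt2. For the Mir467a/Mir467b/Mir467d block this difference ran from -4.73 to -4.62 in WT, from -1.68 to -1.62 in Dgcr8 KO and from -3.98 to -3.73 in Dicer KO. The genotypes did not overlap in this difference for any of the 7 rows, Mir297-1 included, and Sfmbt2 alone already separates them. The mean difference of the block shifted by 3.01 in Dgcr8 KO and by 0.84 in Dicer KO relative to WT. For Mir669c the shifts were 3.28 and 0.86. Over the 7 rows the shift ran from 2.39 to 3.28 in Dgcr8 KO and from 0.69 to 1.00 in Dicer KO, mostly through the fall of Sfmbt2 itself. The shifts of Mir466 (2.41), Mir297-1 (2.46) and the Mir669a/Mir669p block (2.39) in Dgcr8 KO are close in size to the log2 ratio of Sfmbt2 itself (-2.52), and these rows lie at the low end of the scale, where a fall might not show. No test is given for the differences, because 3 arrays against 3 cannot reach an exact permutation p below 0.1. Mir297-1 lies outside Sfmbt2 and is not hosted by it. Which RNA the probes of a miRNA row read (primary transcript, intron or hairpin) was not tested.

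The family rows were then set beside the 297 other rows annotated to miRNA genes only, each set of identical rows counted a single time. Of the 7 family rows 28.6% were called higher in Dgcr8 KO than in WT, and of the other miRNA rows 35.4%. Against Dicer KO the shares were 42.9% and 38.4%. The median log2 ratio to WT in Dgcr8 KO was -0.06 over the family rows, 0.15 over the other miRNA rows and -0.02 over all rows. In Dicer KO it was -0.21, -0.09 and -0.05. With 7 rows these shares are a description, and nothing particular to the families is read from them.

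**Figure D4:**
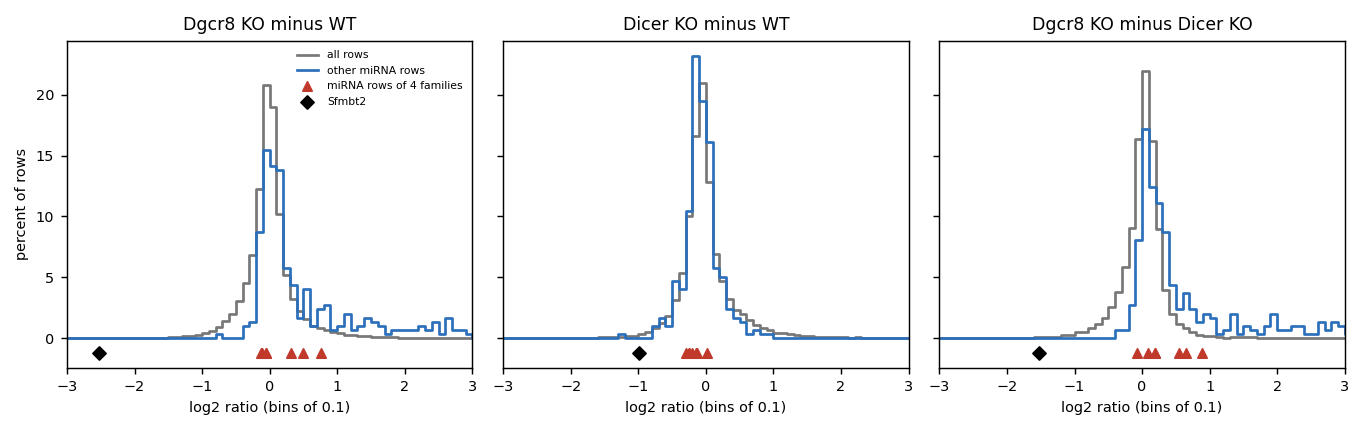
Distribution of log2 ratios (x axis, bins of 0.1) as percent of rows (y axis) for all 35557 rows and for 297 other miRNA rows in the 3 comparisons, with the 7 family rows as triangles and Sfmbt2 as a diamond below. Ratios beyond 3 log2 units in either direction lie outside the x axis and are not shown. The other miRNA rows have a tail to the right in the comparisons with Dgcr8 KO, the family rows reach 0.76 and 0.89 there, and Sfmbt2 lies far to the left at -2.52 and -1.53.

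Other genes with MBT domains, and partners of such proteins, were counted beside it. Of 13 rows of 11 such genes, 2 were called higher in Dgcr8 KO than in WT, and in Dicer KO 1 was called higher and 2 lower. Of all rows, 11.1% were called higher in the first comparison, and 12.6% higher and 13.2% lower in the second. The median log2 ratio was 0.08 and -0.10, against -0.02 and -0.05 over all rows. L3mbtl2, a subunit of a variant Polycomb complex, had mean log2 levels of 10.13 in WT, 10.40 in Dgcr8 KO cells and 9.96 in Dicer KO cells, and was called in both (limma adjusted p = 0.00203 and 0.0196). L3mbtl3 rose by 0.33 in Dgcr8 KO, and Mbtd1 fell by 0.31 in Dicer KO on the log2 scale. A row shared by Yy2 and Mbtps2, which cannot be told apart in it, rose by 0.28 in Dicer KO. Sfmbt1, the closest relative of Sfmbt2, was not called in either of its rows, with log2 ratios to WT of 0.09 and 0.16 in Dgcr8 KO cells and -0.17 and -0.15 in Dicer KO cells. Yy1, a DNA-binding partner of such complexes, had ratios of -0.09 and -0.08 and was not called.

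Sfmbt2 belongs to a small group of genes whose imprint in the placenta rests on H3K27me3, the Polycomb histone mark, rather than on DNA methylation. Of 4 other measured genes of this kind, 3 were called lower in each mutant, beside 12.6% of all rows in Dgcr8 KO and 13.2% in Dicer KO. The median log2 ratios were -0.35 and -0.76, against -0.02 and -0.05 over all rows. Slc38a4, an amino acid transporter gene, had log2 levels of 10.99, 11.14 and 11.15 in WT, 8.61, 8.68 and 8.68 in Dgcr8 KO cells and 7.55, 7.52 and 7.64 in Dicer KO cells. The genotypes did not overlap, and in contrast to Sfmbt2 the Dicer KO arrays were the lowest. The log2 ratio of Slc38a4 was -2.44 in Dgcr8 KO against WT and -3.53 in the other mutant (limma adjusted p = 2.92e-07 and 7.96e-08). Jade1, a subunit of a histone acetyltransferase complex, fell with log2 ratios of -0.42 and -0.75. Gab1, a signalling adaptor gene, fell by 0.29 in Dgcr8 KO and had a ratio of -0.19 in Dicer KO that was not called. Smoc1, which encodes a secreted calcium-binding protein, fell by 0.76 in Dicer KO and had a ratio of 0.06 in Dgcr8 KO. In the direct comparison Slc38a4, Smoc1 and Jade1 were higher in Dgcr8 KO than in Dicer KO by 1.09, 0.81 and 0.33, the opposite order to Sfmbt2 at -1.53. These 3 were called higher, beside 7.53% of all rows. Gab1 had a ratio of -0.10 there, the same sign as Sfmbt2, and was not called.

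**Figure D5:**
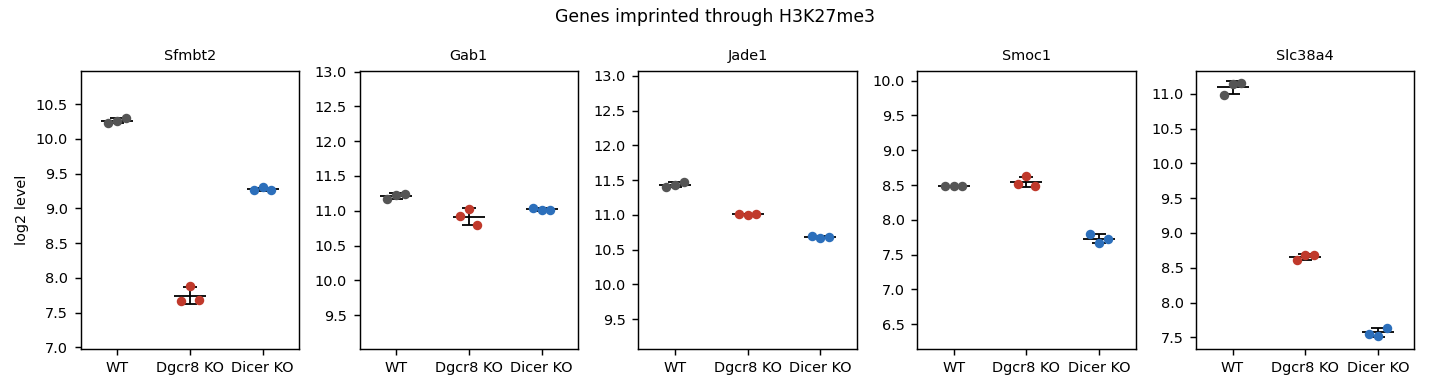
Log2 level (y axis) on each array (points) by genotype (x axis) for Sfmbt2 and 4 other genes with H3K27me3-based imprints, with the mean and SD over 3 arrays and a span of 4 log2 units in every panel. Sfmbt2 is lowest in Dgcr8 KO, whereas Slc38a4, Jade1 and Smoc1 are lowest in Dicer KO. Gab1 has its lowest mean in Dgcr8 KO, and its mutants were not called apart.

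Among genes of the miRNA pathway, Drosha was not called, with a mean log2 level of 10.59 in WT and ratios of -0.15 and -0.14. Xpo5, the exportin that carries hairpins out of the nucleus, fell in both mutants (log2 ratios -0.26 and -0.62 to WT), and Ago1, which encodes an Argonaute that holds mature miRNAs, rose by 1.24 and 0.98. Of 13 rows of 11 such genes, which include Dgcr8 and Dicer1, 3 were called higher and 5 lower in Dgcr8 KO, and 2 higher and 4 lower in Dicer KO. The shares of all rows were 11.1% higher and 12.6% lower in the former and 12.6% and 13.2% in the latter.

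Because Sfmbt2 acts in trophoblast, 11 trophoblast markers were counted beside it. In Dgcr8 KO 3 of them fell, and in Dicer KO 3 fell and 2 rose. Of all rows, 12.6% were called lower and 11.1% higher in Dgcr8 KO, and 13.2% lower and 12.6% higher in Dicer KO. Krt18 and Krt8, simple epithelial keratins that ES cells also express, fell with log2 ratios of -2.00 and -1.42 in Dgcr8 KO cells and -0.52 and -0.45 in Dicer KO cells, and Ascl2 fell with -0.41 and -0.47. Elf5 and Gata3 rose by 0.41 and 0.44 in Dicer KO. Cdx2, Eomes and Tpbpa, which define trophoblast stem cells and their derivatives, had mean log2 levels of 6.48, 6.36 and 3.83 in WT and were not called. The mean over the list lay between 7.10 and 7.15 in WT, 6.69 and 6.79 in Dgcr8 KO cells and 7.01 and 7.07 in Dicer KO cells, and its part in the level of Sfmbt2 was not tested. Primitive endoderm markers (9 rows) had list means between 5.99 and 6.33 on all arrays, and 1 of them was called higher and 1 lower in Dgcr8 KO, and 2 lower in Dicer KO. Gata4, an endoderm transcription factor gene, rose by 0.35 in Dgcr8 KO, and Sox7 fell by 0.31 in Dicer KO. Dab2 fell in 1 of its rows, with log2 ratios of -1.13 and -1.15, and its second, dimmer row was not called (0.24 and -0.09). Of 10 fibroblast markers, Vim rose by 2.31 and 1.62 and Acta2 fell with -2.46 and -2.91, while Lum, with a mean of 3.27 in WT, was not called.

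The rows most like Sfmbt2 across the 9 arrays were found among 2056 rows with a single symbol and a range of at least 1 log2 unit. The highest Pearson correlations were those of Bspry (0.997), Eif2s3y (0.996), Eif1ax (0.995), Acsl4 (0.993) and Dusp9 (0.993). The mean log2 level of Bspry was 8.44 in WT, 7.31 in Dgcr8 KO cells and 7.99 in Dicer KO cells, and that of Eif2s3y was 8.47, 5.10 and 6.99. Eif1ax, Acsl4 and Dusp9 lie on chromosome X, Eif2s3y on chromosome Y and Bspry on chromosome 4. The 9 points fall into 3 genotypes, and any row with the same order and spacing of genotype means scores highly, so the correlations are a description without a test.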

How the data were processed

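Mouse ES cell RNA of 3 genotypes (WT, Dgcr8 KO, Dicer KO) was hybridized to 9 one-colour Affymetrix arrays, 3 per genotype, grouped by the sample labels. The deposited values are log2 levels that the authors normalized, by RMA according to the paper and by GCRMA according to the submitters' processing notes. Their versions were not given in the sources used here. The values were used as deposited, and 0 columns were left unused. The table holds no detection calls, so it cannot be told which dim rows were expressed. Precision is limited by the 3 arrays per genotype.

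Rows were named by the platform annotation. Positions and sequences were those of RefSeq (GRCm38.p6) for the same symbols. A symbol was present on 23410 rows. Tests were run in limma 3.58.1 under R 4.3.3, with lmFit giving each genotype its own mean over the 9 arrays (6 residual degrees of freedom), eBayes for the contrasts, and Benjamini-Hochberg adjustment across 35557 rows. A row was called at an adjusted p under 0.05. The scripts were tested on simulated data.

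Named miRNA rows were those called, those within Sfmbt2 and the brightest. Nearest neighbours of Sfmbt2, the 5 most correlated rows, and from each gene list its defining members and up to 4 called members per comparison were also named. Members and lists were chosen with earlier results of these data known. Alternatives numbered 21 for Sfmbt2 and 23 for the miRNA counts (SAM with 20 label permutations per pair, other scalings and variance models, filters, thresholds, the replicate number as a block, and each array left out). The joint omission of WT replicate 1 and Dgcr8 KO replicate 2 was added after the data were seen.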

Additional observations from a re-analysis of the deposited data

How the results depend on the processing

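Sfmbt2 kept its direction and its call in all 22 settings of each comparison, with log2 ratios from -2.61 to -2.47 in Dgcr8 KO and from -1.02 to -0.94 in Dicer KO relative to WT, and from -1.60 to -1.49 between the mutants. No result reversed. The Mir467a/Mir467b/Mir467d block rose by 0.44 to 0.55 over WT in Dgcr8 KO and lost its call only where a change of 1.5-fold was also required. Mir669c rose by 0.65 to 0.81 and was called in all 23 settings that kept its row. It was removed with the dimmest 25% of rows, so that setting does not test it. The count of miRNA rows higher in Dgcr8 KO than in WT was 1 in place of 2 with the dimmest 25% of rows left out, with rows of exactly 1 symbol, and with a change of at least 1.5-fold. The first 2 of these leave fewer family rows. The count of rows lower in Dicer KO than in WT was 1. It was 0 after centring every array on its median, with quantile normalization repeated, with cyclic loess, with eBayes using trend and robust, at an adjusted p under 0.01 and with at least 1.5-fold. It was 2 with array weights and 2 without WT replicate 1 and Dgcr8 KO replicate 2 together. Leaving out each array in turn gave 0 to 2, with 2 without WT replicate 1 and 0 without WT replicate 2, WT replicate 3, Dgcr8 KO replicate 1 or any Dicer KO replicate. The cause was not tested. The call of Mir297b between the mutants was lost in 15 of 24 settings, with adjusted p from 0.0129 to 0.145, among them each omission of a WT array, of Dgcr8 KO replicate 1 or 2, or of Dicer KO replicate 1 or 3 (log2 ratios from 0.46 to 0.55). Mir669b, the row lower in Dicer KO, lost its call in 13 of 24 settings, with log2 ratios from -0.30 to -0.19 over all of them.

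Same-numbered arrays did not deviate together in every pair (correlations from -0.117 to 0.231), so the numbers were not taken to pair the arrays. With the replicate block the Sfmbt2 log2 ratios were -2.52, -0.99 and -1.53 (limma adjusted p = 1.89e-05, 0.000169 and 0.000126), and 2 family miRNA rows were called higher in Dgcr8 KO than in Dicer KO in place of 3. The dimmest rows limit what can be seen of Mir466, Mir297-1 and the Mir669a/Mir669p block.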

Other observations

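Eif2s3y, 1 of the rows most like Sfmbt2, lies on the Y chromosome, and Uty, Kdm5d and Ddx3y, also Y-linked, were looked up after the values had been seen. The lookup, limited to rows with a single symbol, returned no row for Ddx3y. Uty had log2 levels of 7.79, 8.14 and 7.97 in WT, 5.17, 5.22 and 4.70 in Dgcr8 KO cells and 6.01, 6.19 and 6.08 in Dicer KO cells, and Eif2s3y had 8.22, 8.65 and 8.54, 4.91, 5.26 and 5.11, and 6.98, 7.00 and 7.00. Both fell in the same order of genotypes as Sfmbt2, and the limma adjusted p was 0.00201 or lower in every comparison. Kdm5d stayed between 4.19 and 4.64 on all arrays and was not called. Whether these levels bear on that of Sfmbt2 was not tested.

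A value repeated on 2 or more of the 9 arrays occurs in 41.4% of all rows. Among the members, Sfmbt2 and Mir297b have 8 different values over 9 arrays. The Mir669a/Mir669p block has 7, Mir669c has 7 and Mir297-1 has 6, and the SD of Mir297-1 in Dicer KO rests on such repeats.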
